A study of Mus musculus with 186 samples.

Results

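Activity-induced synaptic effector genes are taken here as 8 listed genes: Arc, Npas4, Homer1, Bdnf, Nptx2, Vgf, Ptgs2 and Inhba. They were taken from the count table by symbol, and all 8 were found among its 28338 genes. Bulk RNA-seq was available for 186 mouse brain libraries. The labels name 6 regions: striatum, hippocampus, prefrontal cortex, somatosensory cortex, substantia nigra and thalamus. Mice were 4 weeks old (96 libraries) or 12 weeks old (90 libraries), and were wild type (WT), Akap11 +/- (HET) or Akap11 -/- (KO). Akap11 encodes an anchoring protein of protein kinase A (PKA). Of the 36 groups of region, age and genotype, 30 had 5 libraries and 6 had 6. The labels give no strain, sex or allele design, and they do not say whether the mutation was present in all cells. They also do not say that libraries of a group came from separate animals, so the p-values below measure the spread between these samples, which may be partly technical.

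When a neuron fires, calcium entry and cyclic AMP activate kinases, among them PKA, that act on transcription factors already present, and a set of genes is transcribed within minutes to hours. Part of this set encodes transcription factors. The genes described here are mostly effectors, whose products act at or near the synapse. Arc takes AMPA-type glutamate receptors into endosomes, and the short product of Homer1 uncouples metabotropic glutamate receptors from their scaffold. Bdnf, Vgf, Inhba and Nptx2 encode secreted proteins, Ptgs2 encodes the cyclooxygenase COX-2 that opens prostaglandin synthesis, and Npas4 is a transcription factor that responds to calcium entry and adjusts the inhibitory synapses a neuron receives. Transcription of these genes varies with recent experience, so their levels in tissue also carry the state of the animal when the brain was taken.

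The members lie apart in the genome (GRCm38, GENCODE M21 annotation). Arc is at chr15:74669083-74672570 on the minus strand, Npas4 at chr19:4984355-4990316 on the minus strand, and Homer1 at chr13:93299635-93405129 on the plus strand. Bdnf is at chr2:109674700-109727007, Nptx2 at chr5:144545902-144557478, Vgf at chr5:137026392-137033351, Ptgs2 at chr1:150100031-150108227 and Inhba at chr13:16011851-16031621, all on the plus strand. Homer1 has 12 annotated transcripts and Bdnf has 11, and the table holds 1 value per gene, so the short activity-induced form of Homer1 and its long constitutive forms are summed. Bdnf overlaps the antisense gene Gm45346, and Inhba overlaps the antisense gene Gm48444 and the pseudogene B230303A05Rik. None of these 3 is in the table under its symbol, and whether counting used strand is not stated in the labels, so reads from them cannot be told apart from reads of Bdnf and Inhba.

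Promoter windows of 300 bases, from 250 before to 50 after a transcription start, were found for 5 of the 8 members in RefSeq (GRCm38.p6). The windows of the 2 members with lower RNA in KO striatum, Inhba and Homer1, are shown with those of Npas4 and Ptgs2, picked because they differ in a core motif of the cyclic AMP response element, the DNA motif of the PKA target CREB. Each is written 5′ to 3′ on the strand of the gene, and capitals mark each match to CGTCA or its reverse complement TGACG.
Inhba, chr13:16011601-16011900, plus strand: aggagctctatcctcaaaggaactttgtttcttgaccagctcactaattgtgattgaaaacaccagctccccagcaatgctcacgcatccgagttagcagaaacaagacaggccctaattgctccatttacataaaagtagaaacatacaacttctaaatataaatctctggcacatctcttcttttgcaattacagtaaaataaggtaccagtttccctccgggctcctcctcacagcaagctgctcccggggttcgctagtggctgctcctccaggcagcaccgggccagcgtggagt
Homer1, chr13:93303507-93303806, plus strand: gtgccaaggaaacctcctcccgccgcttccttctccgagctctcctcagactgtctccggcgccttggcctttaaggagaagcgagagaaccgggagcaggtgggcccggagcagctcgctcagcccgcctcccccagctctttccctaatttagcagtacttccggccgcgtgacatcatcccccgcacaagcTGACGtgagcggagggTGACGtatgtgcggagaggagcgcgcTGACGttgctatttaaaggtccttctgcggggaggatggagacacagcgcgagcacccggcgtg
Npas4, chr19:4989922-4990221, minus strand: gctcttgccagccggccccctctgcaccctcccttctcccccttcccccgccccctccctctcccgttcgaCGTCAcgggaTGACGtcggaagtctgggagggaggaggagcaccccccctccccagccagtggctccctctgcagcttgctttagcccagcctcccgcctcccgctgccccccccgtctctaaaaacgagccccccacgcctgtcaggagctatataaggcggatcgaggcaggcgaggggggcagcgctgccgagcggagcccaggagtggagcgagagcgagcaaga
Ptgs2, chr1:150099781-150100080, plus strand: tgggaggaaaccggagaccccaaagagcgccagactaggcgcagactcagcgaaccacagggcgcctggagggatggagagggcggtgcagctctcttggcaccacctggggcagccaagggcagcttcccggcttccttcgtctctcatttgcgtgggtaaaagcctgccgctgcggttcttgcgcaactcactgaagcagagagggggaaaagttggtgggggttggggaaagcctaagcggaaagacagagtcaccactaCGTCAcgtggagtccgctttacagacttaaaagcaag
The Homer1 window holds 3 matches, the Npas4 window 2, the Ptgs2 window 1 and the Inhba window 0. A second window of Homer1, at another start, holds 0, and of the 7 windows of Bdnf 1 holds a match. In all, 4 of the 12 windows of the 5 members held this core motif, and 20.8% of all 32851 RefSeq windows of this length held it. At least 3 matches were present in 1.03% of all windows. The full palindrome TGACGTCA was in none of the 12 windows and in 1.79% of all windows. A match describes letters in the window and does not show that a factor binds there.

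Library totals ran from 20.8 to 73.3 M reads. Member counts ran from 3708 to 28404 reads for Vgf, from 452 to 25726 for Arc and from 147 to 23368 for Homer1. Inhba was the most thinly read member, with a median of 104.5 reads and 1 library at 0, and Bdnf fell to 2 reads and Ptgs2 to 1 in their lowest libraries. The targeted gene Akap11 was lower in KO than in WT in all 12 sets of region and age, at 5.08% to 7.98% of the WT level. Region markers matched the labels in all 30 striatal and all 32 substantia nigra libraries, in 29 of 31 thalamic libraries, and in 84 of 93 libraries of cortex and hippocampus, where matching means a marker score above every library of other regions. These counts depend on 4-week libraries that stand apart, named next. The highest score elsewhere was 6.28 in striatal KO 161 for cortex and hippocampus, and 8.09 in substantia nigra WT 42 for thalamus. In dopamine neuron markers substantia nigra WT 42 scored 2.02, the lowest of its region, against at most 1.90 elsewhere. At 4 weeks 11 libraries stood apart. In striatum WT 92 and KO 51, 161 and 163 were high in markers of cortical excitatory neurons. In substantia nigra WT 42, KO 44 and KO 91 were low in dopamine neuron markers and WT 92 was low in Akap11. In thalamus WT 913, 914 and 23 had thalamic marker scores of 7.97, 8.04 and 8.82, where the region ran from 7.97 to 9.55. Their summed CPM of 6 markers of cortical and hippocampal excitatory neurons was 1064, 453 and 677. Calls of KO against WT and of age that involve these 11 libraries are given with and without them, and so are the 4-week WT levels that they move most. Levels below are CPM, the reads of a gene per M reads of its library after TMM scaling, which are not scaled by gene length, so a level is compared between samples and not between genes.

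In WT brain the members fell into different regional orders. Of the 15 pairs of regions for each of 8 members, 80 of 120 differed at 4 weeks and 91 of 120 at 12 weeks (adjusted p under 0.05, edgeR quasi-likelihood test). Over all genes tested in these pairs, 45.6% differed at 4 weeks and 61.1% at 12 weeks. Neighbours in an order are said to differ below only where this test called them. Sample numbers recur across regions, the labels do not say whether a number marks 1 animal, and the fits across regions treat the libraries as independent. With the number as a block, 82 pairs differed at 4 weeks and 96 at 12 weeks. Without the WT libraries that stand apart, 93 differed at 4 weeks.

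Arc was highest in cortex and striatum and lowest in thalamus and substantia nigra. At 4 weeks its WT level was 482 ± 206 CPM in somatosensory cortex (SD, n = 5), 330 ± 113 in prefrontal cortex, 311 ± 84.9 in striatum, 144 ± 44.8 in hippocampus (n = 6), 51.1 ± 31.4 in thalamus (n = 6) and 39.1 ± 11.0 in substantia nigra (n = 6). At 12 weeks, with 5 libraries in every group, the order was the same, at 217 ± 95.9, 202 ± 93.0, 200 ± 81.8, 171 ± 58.8, 29.9 ± 14.4 and 26.6 ± 6.17 CPM. Striatum differed from hippocampus at 4 weeks, and hippocampus differed from thalamus at both ages. No other neighbours in the order differed. Npas4 was highest in prefrontal cortex and striatum. Its WT level at 4 weeks was 62.3 ± 25.9 CPM in prefrontal cortex, 55.3 ± 36.6 in striatum, 14.7 ± 3.85 in the somatosensory cortex, 14.0 ± 5.41 in the hippocampus, 6.61 ± 4.05 in the thalamus and 3.10 ± 1.05 in the substantia nigra. The 12-week levels were 67.5 ± 16.8, 34.2 ± 21.1, 13.1 ± 4.90, 16.7 ± 7.996, 6.89 ± 3.14 and 3.42 ± 0.796 CPM in the same regions. Somatosensory cortex and hippocampus did not differ in Npas4 at either age, and prefrontal cortex and striatum differed only at 12 weeks. All other neighbours differed.

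Homer1 and Inhba had their highest WT level in striatum. Homer1 at 4 weeks was 314 ± 49.6 CPM in striatum, 220 ± 24.4 in somatosensory cortex, 163 ± 52.3 in prefrontal cortex, 78.1 ± 13.9 in hippocampus, 32.9 ± 8.54 in the thalamus and 18.02 ± 6.80 in the substantia nigra. The 12-week levels of Homer1 were 281 ± 83.1, 225 ± 77.6, 157 ± 43.9, 88.0 ± 25.0, 23.6 ± 3.05 and 18.5 ± 1.39 CPM. Striatum and somatosensory cortex did not differ in Homer1 at either age, whereas prefrontal cortex stood above hippocampus and hippocampus above thalamus at both ages. Inhba at 4 weeks was 8.36 ± 1.80 CPM in striatum, 2.91 ± 0.678 in somatosensory cortex, 2.89 ± 0.461 in hippocampus, 1.65 ± 0.402 in prefrontal cortex, 1.16 ± 1.48 in the thalamus and 0.573 ± 0.300 in the substantia nigra. At 12 weeks it was 8.69 ± 1.89 CPM in striatum, 4.24 ± 1.66 in somatosensory cortex, 3.82 ± 1.87 in hippocampus, 3.30 ± 2.03 in prefrontal cortex, 0.812 ± 0.494 in substantia nigra and 0.594 ± 0.609 in thalamus. Striatum differed from the next region in Inhba at both ages, by 1.53 on the log2 scale at 4 weeks and 1.04 at 12 weeks. Without the 3 thalamic libraries that stand apart, the 4-week level of Inhba in thalamus was 0.709 ± 0.561 CPM (n = 3).

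Bdnf and Ptgs2 had their highest level in hippocampus and were low in striatum. Bdnf at 4 weeks was 43.4 ± 9.32 CPM in hippocampus, 33.9 ± 5.78 in prefrontal cortex, 25.6 ± 2.99 in somatosensory cortex, 11.4 ± 7.86 in thalamus, 10.8 ± 5.76 in substantia nigra and 1.32 ± 2.15 in striatum. At 12 weeks it was 53.9 ± 9.09, 42.2 ± 9.94, 26.2 ± 6.23, 12.2 ± 3.72, 15.04 ± 3.18 and 0.255 ± 0.192 CPM in the same regions. Striatal neurons take up BDNF protein from cortical axons and transcribe little of it themselves, and at 12 weeks the log2 difference between thalamus, the next region up, and striatum was 5.58. At 4 weeks the striatal value rested on library WT 92, described below, and was 0.369 ± 0.233 CPM without it (n = 4). Ptgs2 at 4 weeks was 25.3 ± 5.90 CPM in hippocampus, 12.6 ± 1.87 in prefrontal cortex, 7.51 ± 1.77 in somatosensory cortex, 1.56 ± 3.09 in thalamus, 1.24 ± 0.859 in striatum and 0.980 ± 1.08 in substantia nigra. Without the libraries that stand apart, Ptgs2 at 4 weeks was lowest in thalamus, at 0.166 ± 0.0762 CPM (n = 3), with 0.864 ± 0.216 in striatum (n = 4) and 1.14 ± 1.35 in substantia nigra (n = 4). Its 12-week levels were 29.9 ± 9.24, 19.7 ± 2.15, 7.51 ± 1.33, 0.299 ± 0.0908, 1.502 ± 0.584 and 1.83 ± 0.524 CPM. Every neighbour in the Ptgs2 order differed at 12 weeks except substantia nigra and striatum, and only somatosensory cortex against thalamus differed at 4 weeks with all libraries.

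Vgf was the member spread most evenly over the regions and Nptx2 was lowest in substantia nigra. Vgf at 4 weeks was 373 ± 101 CPM in prefrontal cortex, 354 ± 96.5 in striatum, 324 ± 62.1 in somatosensory cortex, 313 ± 136 in substantia nigra, 230 ± 46.0 in thalamus and 164 ± 29.2 in hippocampus. At 12 weeks it was 278 ± 69.6, 286 ± 127, 217 ± 40.6, 146 ± 26.3, 136 ± 36.7 and 134 ± 34.8 CPM, and the step from somatosensory cortex to substantia nigra was the one neighbour difference in Vgf at either age. Nptx2 at 4 weeks was 70.2 ± 13.6 CPM in prefrontal cortex, 55.8 ± 15.8 in thalamus, 53.3 ± 8.97 in somatosensory cortex, 46.3 ± 7.99 in hippocampus, 28.7 ± 7.22 in striatum and 12.6 ± 7.79 in substantia nigra, or 9.48 ± 4.65 there without the libraries that stand apart (n = 4). Nptx2 levels at 12 weeks were 71.4 ± 32.6, 52.6 ± 7.53, 37.4 ± 8.42, 39.5 ± 12.5, 33.7 ± 8.81 and 2.92 ± 1.01 CPM. Only striatum and substantia nigra, the lowest 2 regions, were neighbours that differed in Nptx2, at both ages.

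**Figure D1:**
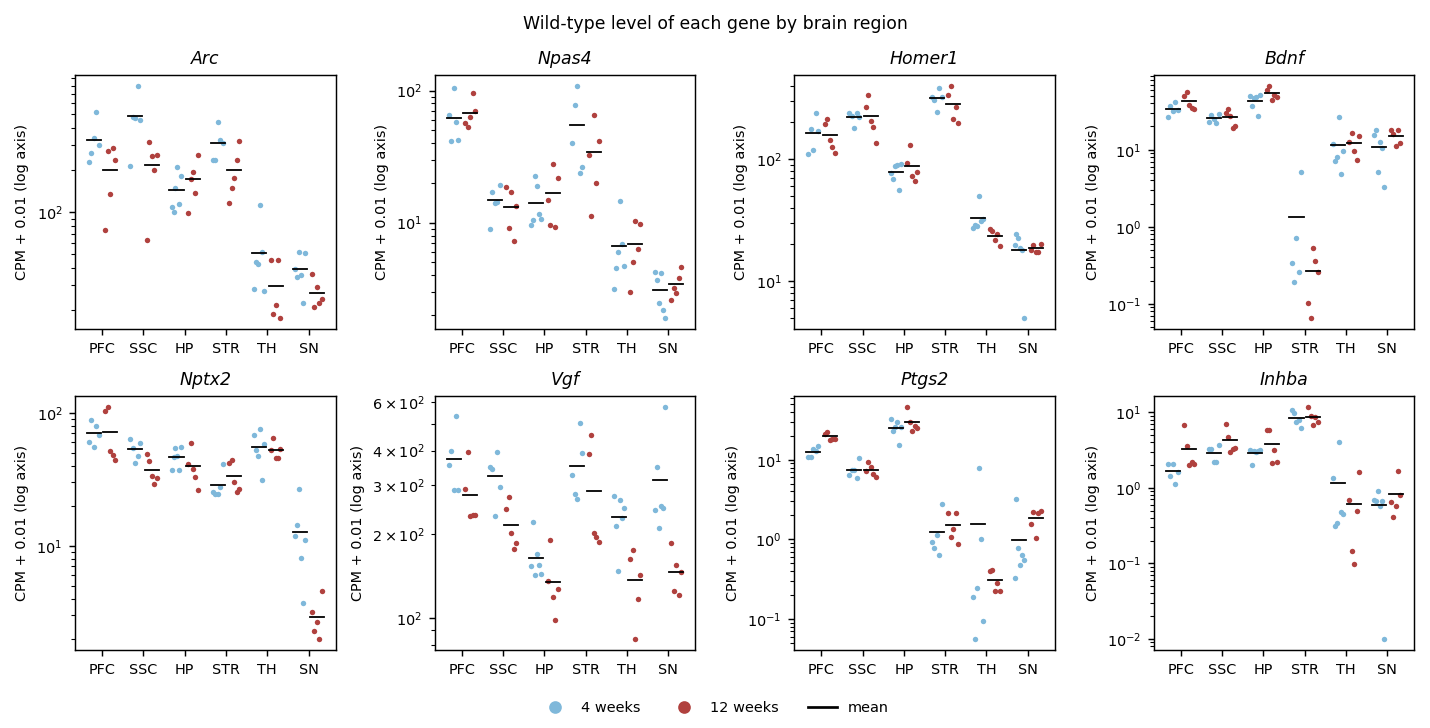
WT level of each member (CPM + 0.01, log axis) in STR (striatum), HP (hippocampus), PFC (prefrontal cortex), SN (substantia nigra), SSC (somatosensory cortex) and TH (thalamus) for 4 weeks (blue) and 12 weeks (red), with 1 point per library and a bar at the group mean. Inhba and Homer1 sit highest in striatum, where Bdnf at 12 weeks has its lowest level, at 0.255 CPM.

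In KO against WT, 4 of 96 tests of a member in a region and age were called, all 4 lower in KO, and 24 had an unadjusted p under 0.05. Genes of any kind with an unadjusted p under 0.05 ran from 479 of 16438 in 12-week hippocampus to 2755 of 15425 in 4-week striatum. The calls were Inhba in striatum at both ages, Homer1 in striatum at 4 weeks and Arc in somatosensory cortex at 4 weeks. Members called were 2 of 8 in 4-week striatum, where 3.35% of all genes tested were called, and 1 of 8 in 12-week striatum, where 4.42% were. In 4-week somatosensory cortex it was 1 of 8 members against 0.0564% of all genes. In the other 9 sets of region and age, 0 of 72 tests were called by edgeR and 13 had an unadjusted p under 0.05, with 0.0138% of all gene tests called there. At that unadjusted threshold these 9 sets held up to 2415 of 15970 genes, in 4-week prefrontal cortex, and 2169 of 15654 in 4-week thalamus. DESeq2 called 1 of the 72, Arc in 4-week thalamus. The median log2 fold change of the 8 members was -0.02 in 4-week striatum, -0.15 in 12-week striatum and -0.26 in 4-week somatosensory cortex, where the median over all genes was 0.00, 0.01 and 0.00.

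**Figure D2:**
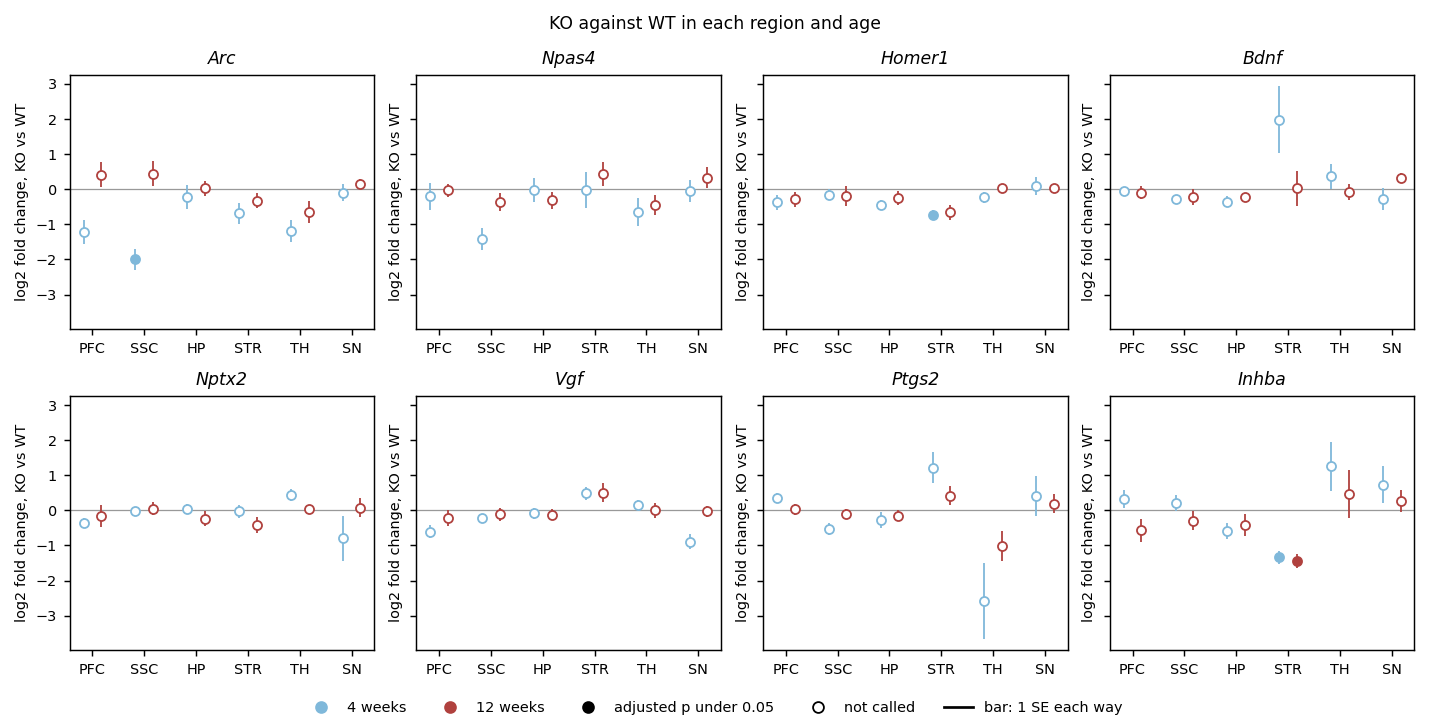
Log2 fold change of KO against WT, with a bar of 1 SE each way, for each member in the 6 regions (abbreviated as in the plot of WT levels) at 4 weeks (blue) and 12 weeks (red). Filled points are the 4 called tests, all below 0.

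Inhba, whose product dimerizes to activin A, a secreted ligand induced by synaptic activity, was lower in KO striatum at both ages. At 4 weeks the WT libraries had 10.7, 9.64, 7.51, 7.78 and 6.15 CPM, the HET libraries 7.27, 7.85, 9.04, 11.3 and 9.49, and the KO libraries 3.69, 3.07, 3.16, 2.21 and 4.33. Every KO library lay below every WT and HET library. The KO level was 39.5% of WT, a log2 fold change of -1.34 (SE 0.18, edgeR adjusted p = 0.000607). At 12 weeks the WT libraries had 11.7, 8.85, 6.69, 8.75 and 7.51 CPM, the HET libraries 5.36, 9.49, 6.40, 6.995 and 7.32, and the KO libraries 2.63, 5.05, 3.08, 2.73 and 2.67. Again no KO library reached the lowest of the other genotypes, and the KO level was 36.8% of WT (log2 fold change -1.44, SE 0.20, edgeR adjusted p = 0.000492). Inhba was called at both ages with any single library left out. In bulk tissue, fewer cells of a type and less RNA per cell cannot be told apart, here and in the results below.

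Homer1 was lower in KO striatum at 4 weeks. The WT libraries had 321, 305, 244, 383 and 320.1 CPM, the HET libraries 339, 358, 322, 271 and 308, and the KO libraries 253, 133, 173, 166 and 215. The highest KO library lay above the lowest WT library, and all others lay below it. The KO level was 59.9% of WT (log2 fold change -0.74, SE 0.15, edgeR adjusted p = 0.0126). In a fit of KO and WT alone the adjusted p was 0.0632. At 12 weeks the WT libraries had 332, 396, 214, 265 and 198 CPM, the HET libraries 187, 433, 306, 257 and 201, and the KO libraries 158, 195, 189, 177 and 180. The KO and WT libraries did not overlap at 12 weeks, but the WT spread was wide and the test missed the threshold (log2 fold change -0.66, 95% interval -1.07 to -0.25, edgeR adjusted p = 0.0987). With KO and WT alone the adjusted p was 0.0438. Groups that did not overlap were found for 1 of 8 members in 4-week striatum (Inhba) and 2 of 8 in 12-week striatum (Inhba and Homer1), against 3.6% and 5.36% of all genes tested. This share of all genes was not counted for other regions or other pairs of genotypes.

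Vgf, a neuropeptide precursor, had higher values in KO striatum and did not pass the test at either age. At 4 weeks the WT libraries had 327, 279, 268, 503 and 391 CPM, the HET libraries 314, 376, 359.7, 296 and 306, and the KO libraries 688, 360.3, 463, 389.9 and 575 (log2 fold change 0.49, SE 0.19, edgeR adjusted p = 0.169). At 12 weeks the WT libraries had 389, 455, 201, 196 and 187 CPM and the KO libraries 385, 410.2, 378, 441 and 432 (log2 fold change 0.51, SE 0.27, edgeR adjusted p = 0.394). The 12-week WT libraries split into a pair near the KO level and 3 below it. Arc had 236, 235, 442, 329 and 313 CPM in the 4-week WT striatum and 158, 199, 234, 102 and 276 in KO (log2 fold change -0.69, SE 0.30, edgeR adjusted p = 0.245). The 2 Arc ranges overlapped, as they did at 12 weeks, where WT had 117, 148, 174, 236 and 323 and KO 153, 138, 136, 174 and 203 (log2 fold change -0.32, SE 0.21). Npas4 spread widely within each genotype, from 23.9 to 108 CPM in 4-week WT and from 18.6 to 122 in KO, and its log2 fold change was -0.02 (SE 0.51) at 4 weeks and 0.43 (SE 0.34) at 12 weeks. Nptx2, a secreted pentraxin that clusters AMPA receptors, had a log2 fold change of -0.03 (SE 0.19) at 4 weeks and -0.41 (SE 0.23) at 12 weeks.

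Bdnf and Ptgs2 in 4-week striatum were high in the libraries that were high in cortical markers. Bdnf had 0.333, 0.185, 0.706, 0.252 and 5.15 CPM in WT, where the last value is library 92, and 0.603, 9.63, 5.43, 10.4 and 0.0833 in KO, where the 3 high values are libraries 161, 163 and 51. All 5 HET libraries lay between 0.219 and 0.516. Ptgs2 had 0.923, 0.770, 1.13, 0.630 and 2.74 CPM in WT and 1.03, 4.78, 2.70, 4.29 and 1.61 in KO, in the same order of libraries. The summed CPM of 6 markers of cortical and hippocampal excitatory neurons was 803 in WT 92 and 1486, 704 and 1128 in KO 161, 163 and 51, and it was 3.80 and 5.00 in the other 2 KO libraries, up to 114 in HET and at most 7.76 in any 12-week striatal library. Neither gene was called in KO against WT (Bdnf log2 fold change 1.98, SE 0.96, edgeR adjusted p = 0.295, and Ptgs2 1.22, SE 0.44, edgeR adjusted p = 0.145). At 12 weeks Bdnf had a log2 fold change of 0.02 (SE 0.50) and Ptgs2 of 0.42 (SE 0.27).

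The 4-week striatal values were also taken without these 4 libraries, which left 2 KO against 4 WT. Inhba stayed lower in KO (log2 fold change -1.16, SE 0.19, edgeR adjusted p = 0.00789). Homer1 was no longer called (-0.43, SE 0.16, adjusted p = 0.18). Nptx2 then passed the test as lower in KO (-0.43, SE 0.09, adjusted p = 0.0184) and Vgf as higher (0.86, SE 0.21, adjusted p = 0.0434). Bdnf turned to -0.20 (adjusted p = 0.915), Ptgs2 came to 0.59 (adjusted p = 0.421), Arc to -0.54 and Npas4 to 0.25. With the cortical marker score as a covariate on all libraries, Inhba (-1.15, adjusted p = 0.000513), Homer1 (-0.64, adjusted p = 0.0144) and Nptx2 (-0.35, adjusted p = 0.024) were called lower. With a covariate for the 4-week libraries that hold few whole values, Vgf was called as well (0.62, adjusted p = 0.0113).

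**Figure D3:**
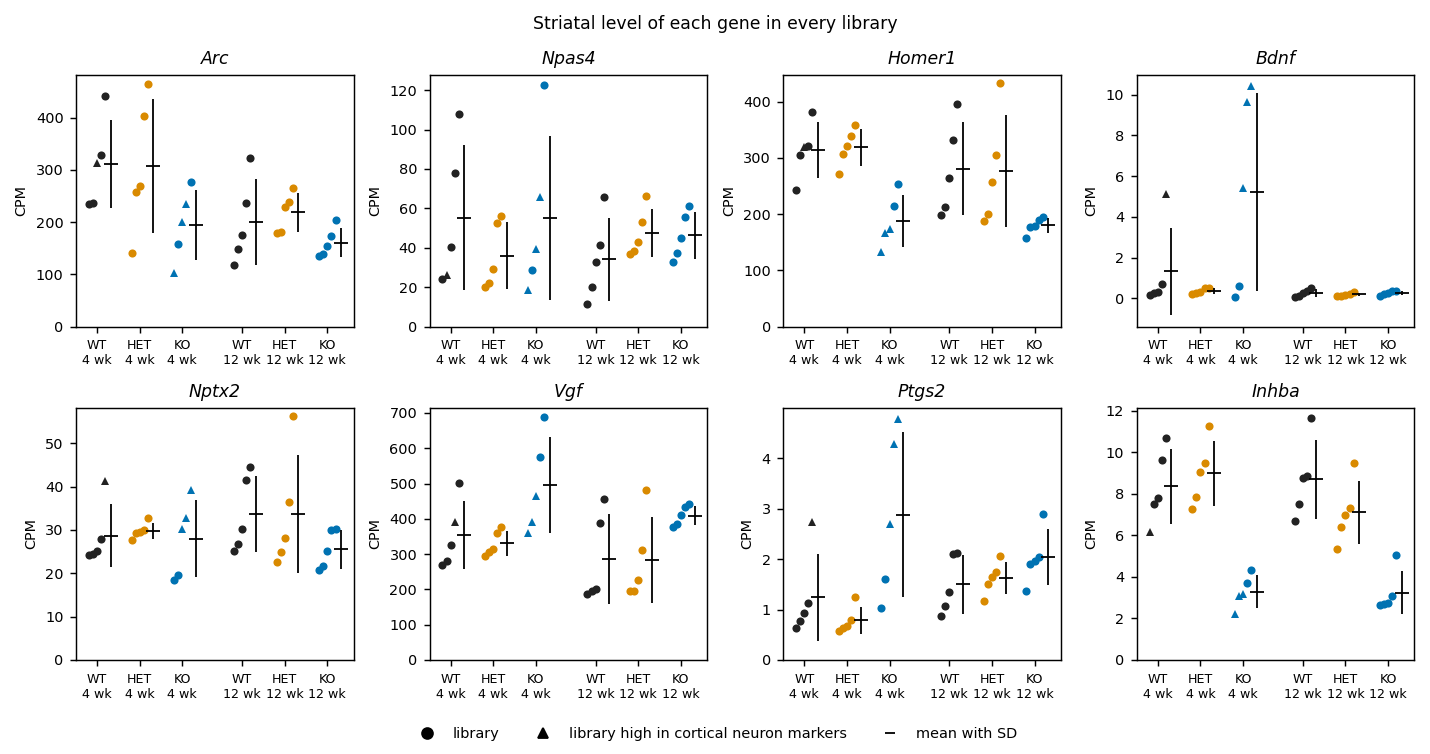
Level of the members in each striatal library (CPM, linear axis) by genotype at 4 and 12 weeks, with the mean and SD of each group, and with triangles for the libraries high in cortical markers. The KO libraries of Inhba lie below 5.1 CPM at both ages, and the Bdnf values above 5 CPM all belong to triangles.

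The KO effect in striatum was compared with the mean KO effect of the other 5 regions in a model of all libraries of an age. At 4 weeks 3 of 8 members differed: Bdnf by 2.07 on the log2 scale (SE 0.51, edgeR adjusted p = 0.00947), Vgf by 0.83 (SE 0.20, adjusted p = 0.00927) and Inhba by -1.71 (SE 0.46, adjusted p = 0.0189), against 3.52% of all genes. Without the libraries that stand apart, Vgf was still called (1.17, adjusted p = 0.00148), Inhba was not (-1.52, adjusted p = 0.0876), and the Bdnf difference was -0.05. The Inhba call was also lost without WT 142, KO 161 or KO 51, and the Bdnf call without WT 914, KO 161 or KO 51. At 12 weeks edgeR called 0 of 8 members and 3.11% of all genes. An unadjusted p under 0.05 was found for 4 of the 8 members and for 2273 of 17860 genes. The 12-week differences were -1.34 for Inhba (SE 0.42, adjusted p = 0.0642) and 0.60 for Vgf (SE 0.25, adjusted p = 0.233).

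Arc was lower in KO somatosensory cortex at 4 weeks. The WT libraries had 213, 477, 473, 794 and 455 CPM, the 6 HET libraries ran from 254 to 410.1 with a median of 289, and the KO libraries had 119, 122, 211, 91.4 and 63.1. No KO library reached the lowest WT or HET library, although KO 163 at 211 CPM and WT 142 at 213 CPM nearly met. The KO level was 25.1% of WT (log2 fold change -1.99, SE 0.30, edgeR adjusted p = 0.0223). The call was lost when any 1 of 8 libraries was left out (WT 23, 92, 913 or 914, KO 12, 51, 161 or 932), with an adjusted p of up to 0.0819, while the log2 fold change stayed between -2.29 and -1.74. Without WT 142 the adjusted p was 0.000752, and in a fit of KO and WT alone it was 0.105. At 12 weeks the WT libraries had 62.8, 317, 252, 199 and 256 CPM and the KO libraries 212, 174, 408, 330.2 and 363. The ranges overlapped and the log2 fold change was 0.44 (SE 0.35, edgeR adjusted p = 1).

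Other activity-regulated members had lower values in the same 4-week cortex without passing the test. Npas4 had 8.92, 17.04, 14.1, 14.5 and 19.2 CPM in WT somatosensory cortex and 2.74, 10.7, 5.48, 3.38 and 5.42 in KO (log2 fold change -1.41, SE 0.31, edgeR adjusted p = 0.145, and DESeq2 adjusted p = 0.0275). Only KO 161, at 10.7 CPM, entered the WT range. Ptgs2 there had a log2 fold change of -0.52 (SE 0.17, edgeR adjusted p = 0.668). In prefrontal cortex at 4 weeks Arc had 228, 264, 340.2, 517 and 300 CPM in WT and 188, 117, 127, 73.8 and 202 in KO. These groups did not overlap, yet the test was not passed (log2 fold change -1.22, SE 0.33, edgeR adjusted p = 0.198). How many of all genes did not overlap in this region was not counted. Vgf in that region had a log2 fold change of -0.61 (SE 0.18, edgeR adjusted p = 0.211), and Arc at 12 weeks 0.41 (SE 0.36).

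In thalamus and substantia nigra the differences rested in part on libraries that stand apart. Arc in 4-week thalamus ran from 27.3 to 112 CPM in 6 WT libraries with a median of 43.4, and had 15.2, 19.4, 19.0, 19.4 and 25.8 in HET and 24.5, 26.6, 21.1, 15.1 and 27.1 in KO. All WT libraries lay above all mutant libraries, with a log2 fold change of -1.18 in KO (SE 0.32, edgeR adjusted p = 0.194) and -1.41 in HET (SE 0.32, edgeR adjusted p = 0.187). Without WT 23, 913 and 914, the thalamic libraries that stand apart, the KO value was -0.52 (SE 0.20, edgeR adjusted p = 0.688). The HET value was then -0.74 (SE 0.20, edgeR adjusted p = 0.894). Ptgs2 in thalamus was above 1 CPM only in WT 913, at 7.82 CPM, and WT 914, at 1.01 CPM, and its log2 fold change moved from -2.57 to 0.77 without the same libraries. These values rest on few reads: 20, 5, 6, 15 and 3 in the KO libraries, and 6, 7 and 4 in WT 142, 42 and 92. Vgf in 4-week substantia nigra ran from 210 to 573 CPM in WT with a median of 251, against 172, 152, 147, 200 and 177 in KO. The groups did not overlap, and the log2 fold change was -0.89 (SE 0.23, edgeR adjusted p = 0.643), or -0.69 (SE 0.16, adjusted p = 0.373) without the 4 libraries that stand apart there. Inhba in 4-week thalamus had a log2 fold change of 1.25 (SE 0.71, edgeR adjusted p = 0.436), and of 2.01 (adjusted p = 0.688) without the same 3 libraries. Nptx2 in 4-week substantia nigra had -0.80 (SE 0.64, edgeR adjusted p = 0.678), and -1.85 (adjusted p = 0.451) without the 4. In hippocampus the log2 fold changes of the 8 members lay between -0.59 and 0.05 at 4 weeks and between -0.42 and 0.03 at 12 weeks.

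**Figure D4:**
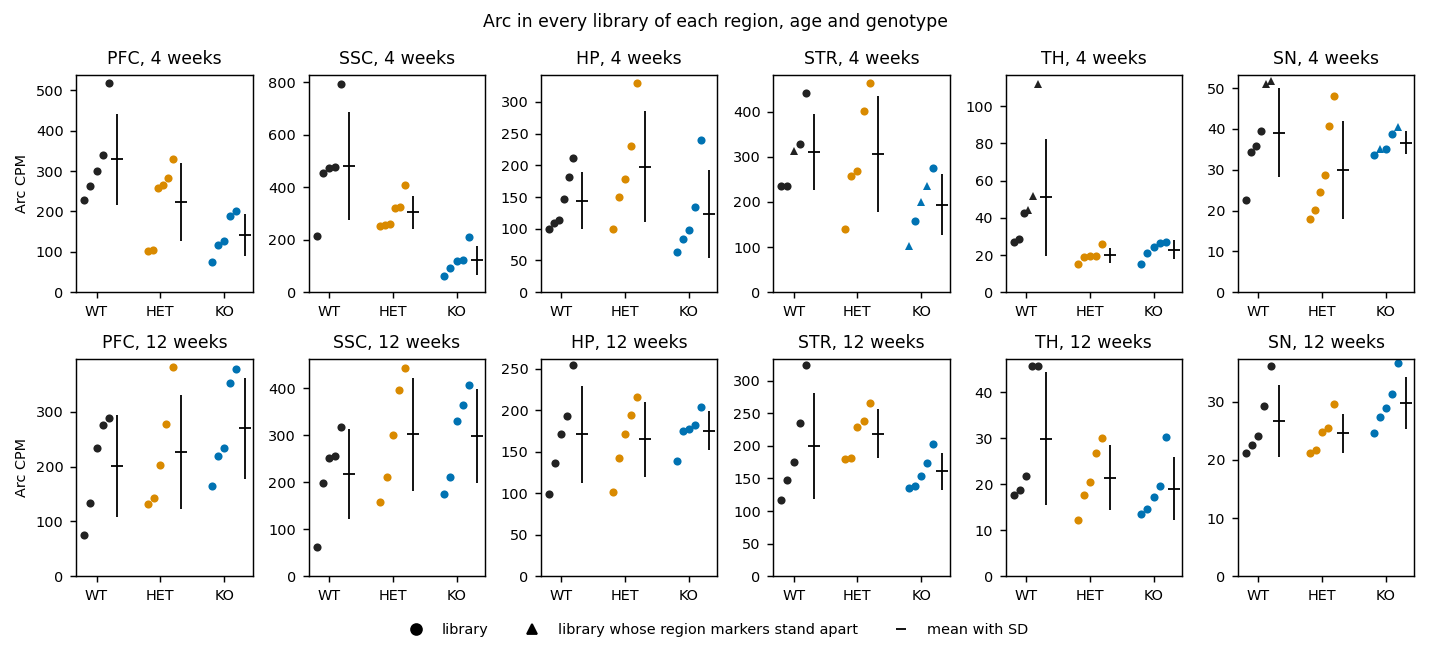
Arc level in each library (CPM, linear axes that differ between regions) by genotype at 4 and 12 weeks, with the mean and SD of each group, and with triangles for the libraries that stand apart. At 4 weeks the KO libraries of somatosensory cortex lie between 63.1 and 211 CPM, below the WT range of 213 to 794, and at 12 weeks the ranges overlap.

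The difference between the KO effects at the 2 ages was tested in each region. By edgeR 0 of 48 tests were called, 4 had an unadjusted p under 0.05, and 0% of all genes were called. All genes with an unadjusted p under 0.05 ran from 480 of 16885 in hippocampus to 1261 of 16809 in substantia nigra. The smallest adjusted p was that of Arc in somatosensory cortex, whose KO effect was higher at 12 than at 4 weeks by 2.44 on the log2 scale (SE 0.49, edgeR adjusted p = 0.405). DESeq2 called this one difference (adjusted p = 0.018). Arc in prefrontal cortex differed in the same direction by 1.64 (SE 0.52, edgeR adjusted p = 0.851). The labels do not say whether the 2 ages were prepared together, so age and preparation cannot be told apart in these data.

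In HET against WT, edgeR called 0 of 96 tests, DESeq2 also called 0, and 11 had an unadjusted p under 0.05, while 0.00521% of all gene tests were called. Among all genes an unadjusted p under 0.05 ran from 263 of 15893 in 12-week somatosensory cortex to 2551 of 15654 in 4-week thalamus. In KO against HET, which shares the KO libraries with KO against WT, 4 of 96 tests were called, 1 higher and 3 lower, and 14 had an unadjusted p under 0.05. All genes at that unadjusted threshold ran from 344 of 16218 in 4-week substantia nigra to 3096 of 15425 in 4-week striatum. Inhba was lower in KO than in HET striatum at 4 weeks (log2 fold change -1.45, edgeR adjusted p = 0.000289) and at 12 weeks (-1.15, edgeR adjusted p = 0.00313). Homer1 was lower in 4-week KO striatum (-0.77, edgeR adjusted p = 0.00957) and Ptgs2 was higher (1.85, edgeR adjusted p = 0.0332). Without the libraries that stand apart, Inhba was still called at 4 weeks (-1.17, adjusted p = 0.00667), Homer1 (-0.46, adjusted p = 0.155) and Ptgs2 (0.72, adjusted p = 0.315) were not, and Nptx2 (-0.66, adjusted p = 0.0012) and Vgf (0.92, adjusted p = 0.0329) were. The Ptgs2 call was also lost when any 1 of 7 libraries was left out. Among all genes, 3.88% were called in 4-week striatum, 4.79% in 12-week striatum and 0.0106% in the other 10 sets, where 0 of 80 member tests were called by edgeR. There Homer1 in 4-week hippocampus came closest, with 108, 82.3, 95.1, 91.8 and 131 CPM in HET and 70.8, 45.8, 51.1, 56.0 and 62.4 in KO. These ranges did not overlap (log2 fold change -0.83, SE 0.15, edgeR adjusted p = 0.111), and DESeq2 called the difference.

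Between 4 and 12 weeks in WT, 10 of 48 tests were called, 2 higher and 8 lower at 12 weeks, and 17 had an unadjusted p under 0.05. All genes at that unadjusted threshold ran from 5188 of 16885 in hippocampus to 6256 of 16358 in somatosensory cortex. Here too age and sample preparation cannot be told apart, so rises and falls below describe only 12-week against 4-week libraries. In prefrontal cortex, where 19.1% of all genes were called, Inhba rose by 1.00 on the log2 scale (SE 0.31, edgeR adjusted p = 0.0221) and Ptgs2 by 0.65 (SE 0.16, edgeR adjusted p = 0.00376). The Inhba call was lost without 12-week WT 1 (0.57, adjusted p = 0.168) or 4-week WT 914 (adjusted p = 0.0603). In somatosensory cortex, where 27.1% of all genes were called, Arc fell (log2 fold change -1.14, SE 0.35, edgeR adjusted p = 0.0142), as did Nptx2 (-0.50, edgeR adjusted p = 0.0182) and Vgf (-0.57, edgeR adjusted p = 0.0073). The Arc call was lost without 4-week WT 914 (-0.89, adjusted p = 0.0672), and the Nptx2 call without 4-week WT 142 (adjusted p = 0.0691) or 12-week WT 4. In thalamus, with 22.6% of all genes called, Vgf fell (-0.76, edgeR adjusted p = 0.00296), as did Homer1 (-0.49, edgeR adjusted p = 0.00814) and Ptgs2 (-2.41, edgeR adjusted p = 0.0342). Without the 3 thalamic libraries that stand apart, Homer1 came to -0.30 (adjusted p = 0.092) and Ptgs2 to 0.90 (adjusted p = 0.294), while Vgf was still called (-0.70, adjusted p = 0.0272). In substantia nigra, with 18.6% called, Nptx2 fell (-2.12, SE 0.55, edgeR adjusted p = 0.00778), as did Vgf (-1.10, SE 0.20, edgeR adjusted p = 0.000269), and both were still called without the libraries that stand apart (-1.71, adjusted p = 0.00317, and -0.90, adjusted p = 0.000179). Hippocampus and striatum had no member called by edgeR, beside 17.7% and 18.5% of all genes, although 1 and 2 members there had an unadjusted p under 0.05.

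Other genes of the members' pathways were counted in KO against WT from lists chosen by known function. Over all genes tested, 3.35% were called in 4-week striatum, 4.42% in 12-week striatum and 0.0564% in 4-week somatosensory cortex. No list was tested against these shares. Of 11 activin and inhibin pathway genes, 2 fell in striatum at each age and 0 rose. They were Fst, which encodes the activin-binding protein follistatin (log2 fold change -1.58 at 4 weeks and -1.15 at 12 weeks), and the type I receptor gene Acvr1c (-1.10 and -1.25). The list's median was -0.10 at 4 weeks and -0.07 at 12 weeks. Without the 4 striatal libraries that stand apart, Fst was still called (-1.34) and Acvr1c was not (-0.56, edgeR adjusted p = 0.055). Of a list of 9 Homer scaffold genes, the postsynaptic scaffold gene Shank3 was the one called in 4-week striatum, where it fell (-0.64). It was not called without those 4 libraries.

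Of 16 immediate early transcription factors, 2 fell and 0 rose in 4-week striatum, where 3.35% of all genes were called: Egr2 (-3.53) and Egr1 (-0.89). Egr2 also fell at 12 weeks (-2.99), alone of the list, while 11 of 16 had positive values and the list's median was 0.46. Without the 4 libraries Egr2 was still called at 4 weeks (-4.33) and Egr1 was not. In 4-week somatosensory cortex, beside Arc, edgeR called 0 of the 16, of which 14 had negative values, with a list median of -0.50 against 0.00 over all genes. Of 18 other activity-induced effectors, Trib1 (-1.05) and Dusp5 (-0.98), a phosphatase of ERK kinases, fell there, Pcsk1, a convertase that cleaves neuropeptide precursors, rose in 4-week striatum (1.03), and Rgs2, a regulator of G protein signalling, rose in 12-week striatum (0.69).

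For the next lists the shares of all genes called were again 3.35% in 4-week and 4.42% in 12-week striatum. Of 12 prostanoid pathway genes, 2 fell and 1 rose in 4-week striatum. All 3 encode prostaglandin E2 receptors: Ptger4 (-1.51), Ptger1 (-0.64) and Ptger3 (1.42). Ptger4 also fell at 12 weeks (-1.19), and without the 4 libraries Ptger3 was not called at 4 weeks and Ptgds, which encodes a prostaglandin D2 synthase, was called higher. Of 6 pentraxin and AMPA receptor genes, only Nptx1, the paralog of Nptx2, was called, lower in 12-week striatum (-0.97). Of 7 BDNF processing and receptor genes, 6 were tested in striatum and 2 fell at 12 weeks, the sorting receptor gene Sort1 (-0.43) and the convertase gene Furin (-0.30). Of 7 secretory granule and VGF processing genes, Chga (-0.49) and Pcsk2 (-0.36) fell at 12 weeks, and of 7 partners of Arc and Npas4, Cacng2 (-0.50) and Camk2b (-0.36). No gene of these lists was called by edgeR in KO against WT outside striatum and 4-week somatosensory cortex. Among cell type markers, Aqp4 of 5 astrocyte markers (-0.58) and C1qa (-0.35) and C1qb (-0.30) of 6 microglia markers were lower in 4-week KO striatum. Of 9 markers of striatal projection neurons, Rgs9 was lower (-0.49) and Tac1 was higher (0.43) in 12-week KO striatum. Of 5 inhibitory neuron markers, Sst was higher there (0.30). Without the 4 libraries that stand apart, 0 of 6 microglia markers were called at 4 weeks, Aqp4 was still called lower and Tac1 was called higher. Their part in the results above was not tested.

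Across libraries of a region, the members were compared with Arc after the mean of each group was removed, on the scale log2(CPM + 1). Of 42 relations, 2 passed adjustment, both with Npas4. In hippocampus Pearson's r was 0.704 and Spearman's rho 0.654 (n = 31, permutation p = 0.00055, adjusted p = 0.0231). It was 0.853 within 4 weeks (adjusted p = 0.016) and 0.383 within 12 weeks. In prefrontal cortex r was 0.568 and rho 0.584 (n = 31, permutation p = 0.00222, adjusted p = 0.0466), and r was 0.620 within 4 weeks and 0.589 within 12 weeks. Without the 2 libraries farthest from the median of Arc, r was 0.598 in hippocampus and 0.574 in prefrontal cortex, and the adjusted p of both was 0.111, so that neither passed.

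At 12 weeks the libraries with sample number 2 were often the highest of their group. This held for Vgf in 15 of 18 groups of region and genotype, for Nptx2 in 14, Homer1 in 13, Bdnf in 12, Ptgs2 in 11 and Inhba in 9, but for Arc in 7 and Npas4 in 4. The mean deviation from the group mean was 0.46 on the log2 scale for Vgf, 0.43 for Nptx2 and 0.37 for Homer1. The number 2 recurs in WT, HET and KO, and the labels do not say what it marks. Over the 6 regions its mean deviation for Vgf was 0.40 in WT, 0.60 in HET and 0.36 in KO. For Npas4 it was -0.50, 0.26 and -0.07. In 12-week WT striatum the library numbered 2 had the highest values of Homer1, Vgf and Nptx2. Number 1 was high for Vgf, Nptx2, Homer1 and Inhba in WT only. WT 1 lay above its group mean in 6 of 6 regions for Vgf and Nptx2, and in 5 of 6 for Homer1 and Inhba. In the same order of members, HET 1 did so in 1, 0, 2 and 1 regions, and KO 1 in 1, 0, 1 and 1. The mean deviation for Nptx2 was 0.27 in WT 1, -0.30 in HET 1 and -0.19 in KO 1. For Arc it was -0.51, 0.31 and -0.17. In 12-week WT striatum WT 1 had the highest Inhba value, 11.7 CPM. At 4 weeks sample numbers also recurred across regions, without crossing genotypes. Arc lay above its group mean in 0 of 5 regions in KO 51 (mean deviation -0.66). It did so in 1 of 6 in WT 142 (-0.47) and in 6 of 6 in HET 931 (0.46). For Npas4 it was 0 of 5 in KO 51 (-0.73) and 6 of 6 in KO 932 (0.74). The Arc values of 4-week cortex and thalamus thus share sample numbers, and are not separate findings if a number marks 1 animal.

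**Figure D5:**
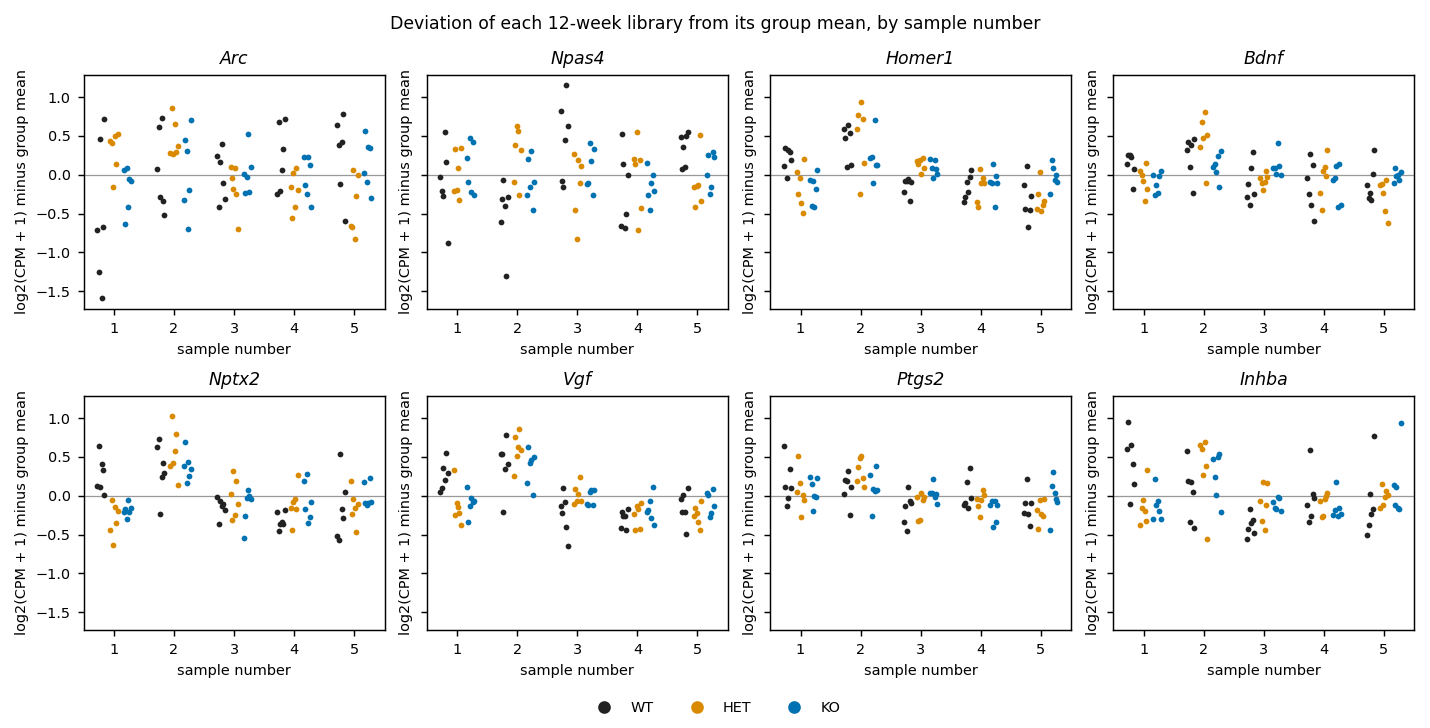
Deviation of each 12-week library from its group mean of log2(CPM + 1), coloured by genotype, by member and sample number, with 18 libraries per number. Libraries numbered 2 lie above 0 on average for Vgf, Nptx2 and Homer1.

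Over the 36 group means, the genes closest to each member were found among 14088 genes, by Pearson's r of mean log2(CPM + 1). This describes patterns that share region differences and libraries. Inhba was closest to 2410022M11Rik (0.926), Fst (0.923) and Zbtb8a (0.915). Homer1 was closest to Prkcb (0.984), Kctd1 (0.978) and Cdk17 (0.977), and Arc to Fam212b (0.970), Synpo (0.966) and Lhx6 (0.964). Ptgs2 was closest to Gm26794 (0.977), Ccbe1 (0.977) and Neurod6 (0.976), and Bdnf to Susd4 (0.970), Amph (0.966) and Kcnj6 (0.964). Npas4 was closest to Tnfaip3 (0.956), Jsrp1 (0.949) and Akirin2 (0.944), Nptx2 to Zdhhc16 (0.970), Trim9 (0.961) and Kcnmb4 (0.952), and Vgf to Fam134a (0.920), Tatdn2 (0.912) and Dapk3 (0.891). Among the members, Arc with Homer1 (0.927) and Homer1 with Inhba (0.868) were the closest pairs, and Bdnf with Vgf (-0.463) was the farthest apart.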

How the data were processed

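The deposited values are expected counts, estimated reads per gene that need not be whole, made by the authors with Salmon on mm10, per the submitters' processing notes. No versions, annotation or strand setting are given in the sources used here. Per the labels' protocols, frozen tissue was dissected and stranded mRNA libraries were built. Counts were rounded and genes filtered with filterByExpr. They were scaled by TMM and tested with edgeR 4.0.16 (limma 3.58.1, R 4.3.3) in each region and age, in each region over both ages, in WT across regions and in all libraries of an age. The p-values were adjusted by Benjamini-Hochberg over all genes tested, and a call is an adjusted p under 0.05. SE is the log2 fold change over the root of F. Printed CPM use TMM over 186 libraries. Single-library relations used 100000 permutations, two-sided. The script was tested on simulated data.

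Alternatives were DESeq2 1.42.0, other scaling, no filter, fits of 2 genotypes or all 36 groups, a replicate block, a cortical covariate, the 4-week libraries with few whole values as a covariate or, for age, left out, 11 libraries that stand apart left out, and each library left out. Members and lists were chosen with earlier results of these data known. Of each pathway list, called genes were counted by direction and up to 4 with the largest change were named. A result for 1 list gene is not reported here. For likeness, the 3 genes with the highest correlation were named. No 2 libraries agreed within sampling noise (lowest chi-square per degree of freedom 7.972 over 390 replicate pairs).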

Additional observations from a re-analysis of the deposited data

Results flagged for a closer look

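The 8 members were examined in the 3 genotypes of 4-week striatum, 12-week striatum and 4-week somatosensory cortex, and in 9 of these 72 combinations 1 library lay far from the others, where chance gives about 1 in 20. In 4-week WT striatum, library 92 was high in Bdnf (5.15 CPM, next 0.706), Nptx2 (41.3 CPM, next 27.8) and Ptgs2 (2.74 CPM, next 1.13), and it is among the libraries high in cortical markers. In 4-week somatosensory cortex, KO 161 was low in Homer1 (123 CPM, next 215) and Bdnf (16.3 CPM, next 21.3), HET 931 was high in Bdnf (35.5 CPM, next 23.3) and Ptgs2 (10.6 CPM, next 7.04), and HET 93 was high in Nptx2 (65.9 CPM, next 56.9). In 12-week KO striatum, library 2 was high in Inhba (5.05 CPM, next 3.08). It lay below the lowest WT library.

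The KO effect in 4-week striatum differed from that of the other 5 regions for Bdnf (2.07), Vgf (0.83) and Inhba (-1.71) on the log2 scale, by the edgeR contrast given above. Without the libraries that stand apart, Vgf was still called (1.17), Inhba was not (adjusted p = 0.0876) and the Bdnf difference was -0.05.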

How the results depend on the processing

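Call counts of the members moved as follows. With DESeq2, KO against WT gave 2 calls in place of 1 in 4-week somatosensory cortex and 1 in place of 0 in the other 9 sets, KO against HET 5 in place of 3 in 4-week striatum and 1 in place of 0 in the other 10 sets, and the age difference of the KO effect 1 in place of 0. Fits of 2 genotypes gave 1 in place of 2 in 4-week striatum, 2 in place of 1 in 12-week striatum and 0 in place of 1 in 4-week somatosensory cortex. The fit of all 36 groups gave 5 in place of 0 in the other 9 sets, 4 in place of 0 for HET against WT, 2 in place of 0 for KO against HET in the other 10 sets and 0 in place of 1 for KO against HET in 12-week striatum. For KO against WT in 4-week striatum it gave 3 in place of 2, with Bdnf called (1.94, adjusted p = 0.000172), and its 5 in the other sets included Inhba in thalamus (1.26, adjusted p = 0.0445) and Nptx2 in substantia nigra (-0.84, adjusted p = 0.0377). Without the libraries that stand apart, the striatal contrast at 4 weeks gave 1 in place of 3. Of the Arc relations, 0 remained in place of 2 without the 2 farthest libraries, 1 with a pseudocount of 0.1, 1 in 4-week and 0 in 12-week libraries.

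Leaving out single libraries gave 2 to 4 calls in 4-week striatum, 1 in 12-week striatum, 0 to 2 in 4-week somatosensory cortex, 0 in the other 9 sets, 0 to 1 for HET against WT (without WT 142, Arc in thalamus had -1.53, edgeR adjusted p = 0.035), 2 to 4 for KO against HET in 4-week striatum, 9 to 11 for age in WT, 1 to 4 for the striatal contrast at 4 weeks and 0 to 1 at 12 weeks, and 78 to 84 and 88 to 92 for region pairs. Without WT 92, Bdnf (3.79, adjusted p = 0.0337) and Ptgs2 (1.72, adjusted p = 0.0267) were called in 4-week striatum. Without the 4-week libraries with few whole values, age calls were lost for Inhba in prefrontal cortex (0.88, adjusted p = 0.0501) and for Nptx2 (-0.45, adjusted p = 0.0728) and Vgf (-0.41, adjusted p = 0.0988) in somatosensory cortex. Signs turned for Bdnf in 4-week striatum (-0.20), Ptgs2 in WT thalamus with age (0.90), Bdnf in the striatal contrast (-0.052) and Npas4 in 4-week striatum (0.25), all without the libraries that stand apart, and for Npas4 with the cortical covariate (0.23). With single libraries left out, Npas4 in 4-week striatum ran from -0.54 to 0.40, Nptx2 from -0.18 to 0.13, and Bdnf in 12-week striatum from -0.24 to 0.47. Of 223 values of single genes under the other settings, 193 kept direction and side of the threshold. The causes were not tested.

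The labels do not say that sample numbers pair libraries, and every correlation was over 0.1 in 2 of 18 pairings of genotypes, so the numbers were not taken as pairs. As a hint from the data, 62 of 90 same-numbered pairs correlated above 0.1 (mean 0.188). Of 90 libraries, each compared with 5 numbers of another genotype, 48 correlated best with their own number. With the replicate block, 12-week striatum gave 2 calls in place of 1 for KO against WT (Homer1 -0.62, adjusted p = 0.037) and for KO against HET, and the striatal contrast at 12 weeks gave 2 in place of 0 (Inhba and Vgf). Depth limits Inhba, Bdnf in striatum, and Ptgs2 in thalamus and striatum most.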
